A study of Saccharomyces cerevisiae with 6 samples.

Results

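The genes described here encode the protein-degrading and other hydrolytic enzymes of the yeast vacuole, with an inhibitor of one of them, and the machinery of autophagy. Members were the probe sets of the array whose annotated gene symbol equals 1 of 33 listed names. All 33 genes were found, on 36 of the 9335 probe sets, and all 33 passed the filter on low signals. They fall into 8 vacuolar genes (5 peptidases, 2 other hydrolases and 1 inhibitor) and 25 autophagy genes. ATG15 has 3 probe sets and ATG19 has 2, and each gene was represented by the probe set with the highest mean.

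In budding yeast the vacuole is the counterpart of the lysosome. Its peptidases are made as inactive precursors that mature in the vacuole in a cascade started by proteinase A, and cells low in nutrients depend on them for recycled amino acids. Autophagy carries cytoplasm to the vacuole in double-membrane vesicles, under a kinase complex that TOR signalling restrains while nutrients are plentiful, and a related route delivers some hydrolases to the vacuole in growing cells.

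Transcript levels came from Saccharomyces cerevisiae grown in YPD, a rich medium with glucose, at 30 °C with shaking. At an optical density of 1.0 the cultures received azinomycin B, a natural product that alkylates and cross-links DNA, at 100 or 10 µg/ml in a little ethanol, or nothing, and grew on for 6 h. The labels give the lower dose as the ED50 in yeast. The strain is not given in the labels, nor is ethanol in the untreated cultures. There were 6 single-colour Affymetrix arrays: 3 controls, 2 treated with 100 µg/ml and 1 with 10 µg/ml. The labels A100, B100 and 10 each name 1 control and 1 treated array, and are called pairs below. The 4 arrays labelled A100 or B100 are called the 100-series and the 2 labelled 10 the 10-series. Nothing says that the arrays came from separate cultures, and a p-value here reflects only how far these arrays spread. A lower signal in every cell and a lower number of cells that express a gene cannot be told apart.

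The labels of treated and control were borne out by HUG1, a gene under the DNA damage checkpoint. Its signal lay between 36.1 and 52.1 in the controls. It reached 4369.7 (A100) and 477 (B100) on the 100 µg/ml arrays and 1109.8 on the 10 µg/ml array. It therefore did not follow the order of the doses. The 2 series stood apart: with treatment as a term, 10.4% of the 6956 probe sets tested were called between them (limma, adjusted p under 0.05), 360 higher and 360 lower. The treated A100 array also stood apart from its own series. Its log2 signals correlated over probe sets at 0.906 to 0.933 with the other 3 arrays there, and at 0.902 and 0.913 with the 10-series. Those other 3, treated B100 among them, correlated at 0.979 to 0.980 with each other. Since each dose lies in 1 series, the effects of dose and series cannot be told apart. For ACT1 the 3' signal over the 5' signal, a sign of RNA integrity, ranged from 1.69 to 2.05 in the controls and from 1.44 to 2.09 on the treated arrays. On the treated A100 array low values cluster among probe sets numbered 7600 to 8500: 5.48% of those there were at least 4-fold below the A100 control, against 0.596% elsewhere, and 5 members lie in this range (PEP4, ATG5, ATG11, ATG21 and ATG29).

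Of the 5 vacuolar peptidase genes, 5, 5 and 4 were lower on the treated than on the control array in the A100, B100 and 10 pairs. Over all probe sets 48.2%, 43.2% and 42.1% were lower there. None of the 5 genes passed the test. PEP4 encodes proteinase A, the aspartyl protease that activates the other precursors. Its control signals were 8592 (A100), 10042 (B100) and 7587 (10), and its treated signals 5860.1, 8068 and 6212 in the same order. The differences within pairs, on the log2(signal + 16) scale used throughout, were -0.55, -0.32 and -0.29. Each treated array was thus below its own control, although the treated B100 array lay above the control of the 10-series. PRC1, which encodes carboxypeptidase Y, a serine carboxypeptidase, had control signals of 9044, 10313 and 8457 and treated signals of 5087, 8345 and 6797. All 3 treated values of PRC1 were below all 3 controls, with pair differences of -0.83, -0.30 and -0.31.

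APE3, the gene of aminopeptidase Y, had 8985, 10478 and 10812 in the controls and 7114, 9439.7 and 7686 when treated. Its pair differences were -0.34, -0.15 and -0.49, and the groups overlapped. PRB1 encodes proteinase B, a subtilisin-like serine protease. It was read at 4593, 4272 and 1455 in the controls and at 2809.6, 3979 and 1240 in the treated cultures, with pair differences of -0.71, -0.10 and -0.23. Both 10-series arrays stood far below the other 4, so PRB1 is taken up again with the series below.

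CPS1, which encodes the metallopeptidase carboxypeptidase S, was the peptidase with the widest range of pair differences. Its signals were 613, 581 and 779.6 in the controls, with 247 and 397 on the 100 µg/ml arrays and 895 on the 10 µg/ml array. Both 100 µg/ml arrays lay below all 3 controls while the 10 µg/ml array lay above them, with pair differences of -1.26, -0.53 and 0.19. Against all 3 controls the log2 difference at 100 µg/ml was -1.02 (SE 0.318, limma adjusted p = 0.957). Leaving out the treated A100 array gave -0.69.

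PBI2, the gene of the cytosolic inhibitor of proteinase B, which also takes part in vacuole fusion, was the most even of the 8 vacuolar genes between the 100 µg/ml pairs. The controls read 9224, 10276 and 8010, the 100 µg/ml arrays 6224 and 6891, and the 10 µg/ml array 6825. Every treated array was below every control, with differences of -0.57, -0.58 and -0.23 within the pairs. The fit of either dose against control, with series as a term, gave -0.46 (SE 0.170, 95% interval -0.86 to -0.057 before adjustment). It did not pass (limma adjusted p = 0.585), and its adjusted p ranged from 0.342 to 0.955 over 16 alternatives.

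The other 2 hydrolases did not follow the peptidases. AMS1 encodes the vacuolar alpha-mannosidase, a cargo of the route from cytoplasm to vacuole. Its signal was 2862 in the A100 control, 569 in the B100 control and 1383 in the third, and 1430.5, 2337 and 1449 on the treated arrays, so the pair differences ran from -0.99 to 2.01 with 0.066 at 10 µg/ml. The B100 control was the lowest of the 6 arrays, and without it the fitted value for either dose turned from 0.36 to -0.34. PHO8, the gene of vacuolar alkaline phosphatase, a target of the phosphate regulator Pho4, had 665, 527 and 845 in the controls and 757, 749.5 and 557 when treated. It was higher in both 100 µg/ml pairs (0.18 and 0.50) and lower in the 10 µg/ml pair (-0.59), and the test of this difference between the doses had an unadjusted p of 0.0706 (limma adjusted p = 0.966).

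**Figure D1:**
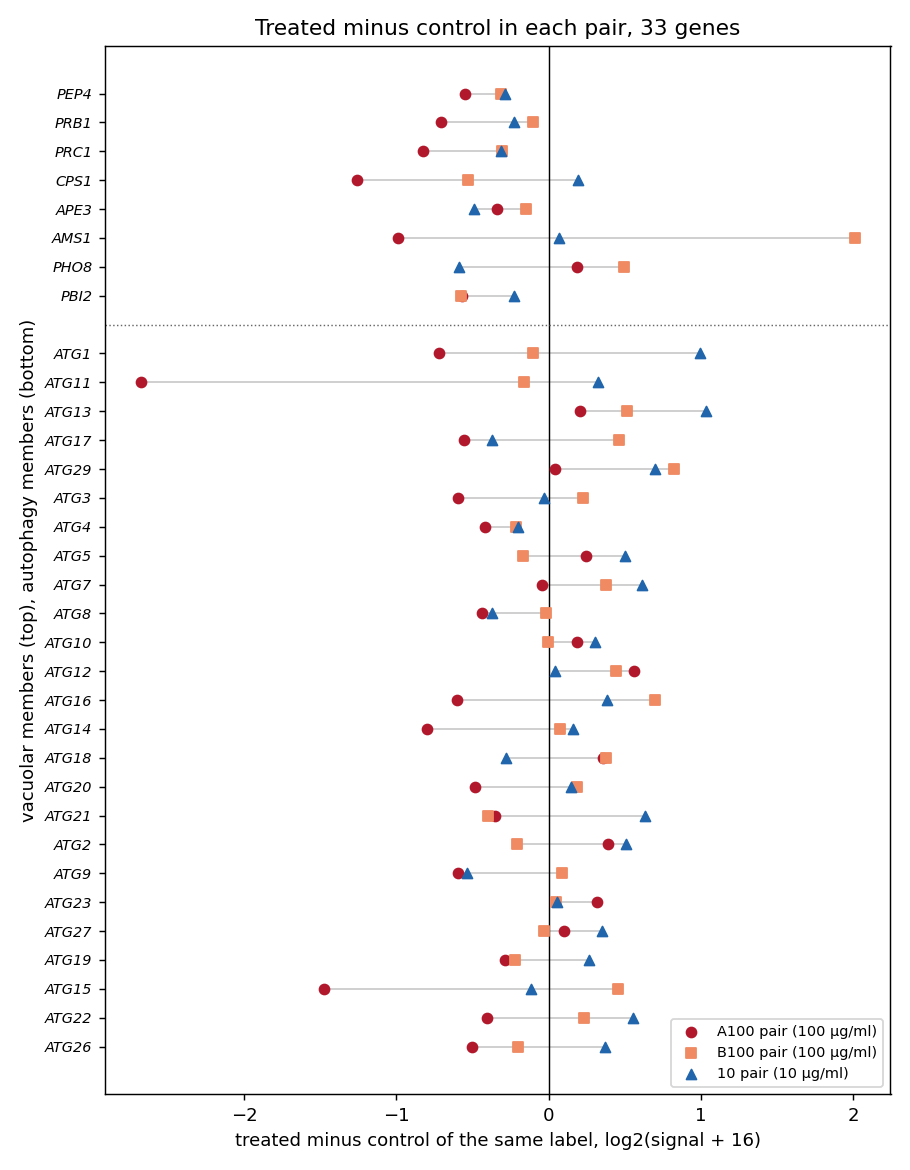
Treated minus control of the same label, on the log2(signal + 16) scale (x axis), for the 8 vacuolar genes (top) and the 25 autophagy genes (bottom); each point is 1 pair of arrays and the grey line spans the 3 pairs. PEP4, PRB1, PRC1, APE3 and PBI2 have all 3 points left of 0, while most autophagy genes have points on both sides.

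Over the 8 vacuolar genes the median pair difference was -0.64, -0.23 and -0.26 for A100, B100 and 10, where the medians over all probe sets tested were 0.029, 0.058 and 0.082. PEP4, PRB1, PRC1, APE3 and PBI2 were below control in all 3 pairs, that is 5 of 8, and 12.2% of all probe sets were. None was above control in all 3. High signals were more often lower on the treated arrays: of the 328 probe sets with a mean signal of 4000 or more, a limit chosen after seeing the data, 45.1% were lower in all 3 pairs. PEP4, PRC1, APE3, PBI2 and the autophagy gene ATG8 are among those 328, whose medians were -0.24, -0.19 and -0.12 in the same order. Quantile normalization, which gives all arrays the same distribution of signals, left PEP4, PRB1 and PBI2 lower in all 3 pairs. It turned the B100 pair to 0.028 for PRC1 and 0.19 for APE3, and brought that of PEP4 to -0.012 and that of PRB1 to -0.0040, while PBI2 kept -0.29. The part of signal level in the lower peptidase values was not tested.

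In the fit of either dose against control 6 of the 8 vacuolar genes were negative, with a median of -0.36, where 43.5% of all probe sets were negative and their median was 0.056. The negative genes were CPS1 (-0.53), PRC1 (-0.48), PBI2, PEP4 (-0.38), PRB1 (-0.35) and APE3 (-0.33), and the positive ones AMS1 and PHO8 (0.03). None of the 33 members was called, and 0% of all probe sets were. At an unadjusted p under 0.05 there were 2 members, PBI2 lower and ATG13 higher, against 2.07% of all probe sets lower and 5.46% higher. Without the treated A100 array the vacuolar median was -0.24, and CPS1 was at -0.24, PRC1 at -0.26, PEP4 at -0.24 and PRB1 at -0.19. Without either array of the 10-series CPS1 was at -0.90. Against all 3 controls at 100 µg/ml the median was -0.32, and -0.10 without the treated A100 array, and again 0% of probe sets were called, with CPS1 as the sole member at an unadjusted p under 0.05, where 3.34% of all probe sets stood. At 10 µg/ml 0% were called as well and no member had an unadjusted p under 0.05, against 4.18% of all probe sets.

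The autophagy genes had no common direction with treatment. Of the 25, the treated array was lower for 16 (A100), 11 (B100) and 7 (10), with medians of -0.40, 0.075 and 0.31, and over all probe sets it was lower for 48.2%, 43.2% and 42.1%. ATG4 and ATG8 were lower in all 3 pairs, and ATG12, ATG13, ATG23 and ATG29 were higher in all 3, against 12.2% and 22% of all probe sets. In the fit of either dose 12 were negative and 13 positive, with a median of 0.056. Without the treated A100 array 3 were negative. By role, the median pair differences (A100, B100 and 10) were -0.56, 0.46 and 0.70 for the 5 kinase complex genes, -0.23, 0.11 and 0.17 for the 8 conjugation genes and 0.21, 0.0093 and 0.20 for the 4 membrane supply genes. After quantile normalization, and after scaling to a common median, ATG13 was the sole member higher in all 3 pairs.

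Of the kinase complex that starts autophagy, ATG13, its regulatory subunit, was higher on every treated array than on its control. The controls read 216, 195 and 53.0, the 100 µg/ml arrays 251 and 286, and the 10 µg/ml array 125. Both 100 µg/ml arrays were above all controls, and the pair differences were 0.21, 0.52 and 1.04. Fitted over both doses the difference was 0.59 (SE 0.223, limma adjusted p = 0.585), and 0.36 without either array of the 10-series. ATG1, the kinase itself, had 278, 228 and 47.8 in the controls and 163, 211 and 111 in the treated cultures. It was lower in the A100 and B100 pairs (-0.72 and -0.10) and higher in the 10 pair (0.99). That contrast between doses had the lowest unadjusted p of the 33 members, 0.0243, and did not pass (limma adjusted p = 0.966). No member passed this test, 0% of all probe sets did, and 3.36% had an unadjusted p under 0.05.

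ATG29, a scaffold subunit of the complex, was read at 95.4, 107 and 79.3 in the controls and at 98.8, 202 and 139 when treated. Its pair differences were 0.043, 0.83 and 0.70, near 0 in the A100 pair, and the fitted value of 0.52 was 0.28 without treated B100 and 0.81 without treated A100. ATG11, the scaffold of selective autophagy, had the largest fitted difference of any member in absolute size, and it rests on 1 value. Its signals were 209.9, 217 and 301 in the controls, 192 in treated B100, 382 at 10 µg/ml and 19.3 in treated A100, where its probe set lies in the range with clustered low values. The fitted difference for either dose was -0.84 (SE 0.660) and 0.059 without that array. The scaffold gene ATG17 ranged from -0.56 to 0.46 over the pairs.

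The conjugation genes attach the ubiquitin-like proteins Atg8 and Atg12 to a lipid and to Atg5. ATG8, whose product coats the growing vesicle membrane, had 4754, 4537 and 4306 in the controls and 3508, 4481 and 3328 when treated. The B100 pair was level (-0.018), and the A100 and 10 pairs were at -0.44 and -0.37. ATG12 had 131, 151 and 264 in the controls and 200.5, 211 and 273 when treated, which is 0.56, 0.44 and 0.042 within the pairs. ATG7, the activating enzyme of both proteins, read 258, 217 and 100.5 in the controls and 249, 286 and 162 when treated, with pair differences of -0.047, 0.37 and 0.61. The groups overlapped for all 3 of these genes. Of the other conjugation genes, ATG4, the protease that trims and releases Atg8, was at -0.42, -0.21 and -0.20 within the pairs. Its treated signals were 43.3, 47.0 and 41.7, all just below the lowest control, 50.3. ATG3 and ATG10, conjugating enzymes, ATG5 and ATG16 each changed sign among the pairs.

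Among genes that supply membrane, ATG9 encodes the membrane protein of the vesicles that seed autophagosomes. It was read at 99.6, 87.8 and 96.1 in the controls and 60.5, 94.5 and 61.2 when treated, lower in the A100 and 10 pairs (-0.60 and -0.54) and level in the B100 pair (0.09). The fitted value for either dose was -0.35, and -0.22 and -0.53 without treated A100 and treated B100. ATG2, a lipid transfer protein gene, had 204, 158 and 63.4 in the controls and 271, 135 and 96.9 when treated, and changed sign among the pairs (0.39, -0.21 and 0.51). ATG23 and ATG27, which act in the cycling of Atg9, lay within 0.05 to 0.32 and -0.031 to 0.35. ATG18, which binds the lipid made by the Vps34 kinase, was above all controls on both 100 µg/ml arrays (367 and 348 against 247 to 283) and below its control at 10 µg/ml (-0.28). The lipid kinase subunit ATG14 and the lipid binders ATG20 and ATG21 each had both signs.

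ATG15 encodes the lipase that breaks open autophagic bodies inside the vacuole. Its main probe set read 633, 401 and 453 in the controls and 218, 556 and 416 when treated, with pair differences of -1.47, 0.45 and -0.12. The other 2 probe sets gave -0.74 and -0.80 for A100 and 0.30 and 0.29 for B100, so all 3 differed in sign between the 2 pairs at one dose. ATG22, an amino acid exporter of the vacuole, ATG19, the receptor of aminopeptidase I and alpha-mannosidase, and ATG26, a sterol glucosyltransferase, were lower in the A100 pair (-0.40, -0.29 and -0.50) and higher in the 10 pair (0.55, 0.26 and 0.37). In the B100 pair ATG22 was higher (0.23), while ATG19 and ATG26 were lower (-0.22 and -0.20). The second ATG19 probe set did not pass the filter on low signals. It was lower in all 3 pairs (-0.17, -1.45 and -0.033), with a mean signal of 23.3 in the 100-series and 31.95 in the 10-series.

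Both 100 µg/ml arrays were below all 3 controls for PRC1, CPS1, PBI2, ATG4 and ATG11, that is 5 of 33 members, where 7.58% of all probe sets were. They were above all controls for ATG13 and ATG18, 2 of 33, where 12.3% of all probe sets were.

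Among these genes calls were made between the series and none with treatment. The same held over all probe sets, so this was not particular to these genes. In the fit with treatment as a term 4 members were called between the series, PRB1, ATG13, ATG1 and ATG7, all higher in the 100-series. That is 4 of 33 called higher and 0 called lower, where 5.18% of all probe sets were called in each direction and 10.4% in both. The signal of PRB1 was between 2809.6 and 4593 on the 4 arrays of the 100-series and 1455 and 1240 in the 10-series. The log2 difference was 1.51 (SE 0.212, limma adjusted p = 0.0133), the largest of the 33 members in absolute size. ATG13 was 1.34 higher (SE 0.236, limma adjusted p = 0.0217), ATG1 1.37 higher (SE 0.342, limma adjusted p = 0.0494) and ATG7 0.89 higher (SE 0.221, limma adjusted p = 0.0485). For all 4 genes the 2 series did not overlap: the highest 10-series signal was 125, 111 and 162 for ATG13, ATG1 and ATG7, and the lowest 100-series signal was 195, 163 and 217.

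These 4 calls depend on single arrays, while their direction was the same with each array left out. Without the control A100, control B100, control 10 or treated 10 array, the limma adjusted p of PRB1 was 0.0872, 0.0603, 0.181 and 0.107, that of ATG13 0.104, 0.0824, 0.230 and 0.0908, that of ATG1 0.160, 0.133, 0.389 and 0.0899, and that of ATG7 0.169, 0.128, 0.356 and 0.141. Without the treated B100 array PRB1 alone of these was called (adjusted p = 0.0384), with 0.0570 for ATG13, 0.101 for ATG1, 0.0970 for ATG7 and, newly under the threshold, 0.0476 for ATG2. Without the treated A100 array 8 members were called, among them ATG1 at 0.00689, CPS1 at 0.0454, ATG11 at 0.0454 and ATG2 at 0.0340. The control of the 10-series was lower than its treated partner for ATG1, ATG13 and ATG7, and without that control their differences between series were 0.67, 1.01 and 0.67, while that of PRB1 was 1.42. ATG1 and ATG7 also missed the threshold with a pseudocount of 1 (adjusted p = 0.0538 and 0.0514) and with no filter (0.0794 and 0.0731), and from the controls alone none of the 4 was called (0.0919 to 0.142).

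ATG2 followed the same pattern without passing (1.09, SE 0.309, limma adjusted p = 0.0659), with 63.4 and 96.9 in the 10-series and between 135 and 271 in the 100-series. CPS1 had the opposite pattern, with 2 values of 779.6 and 895 in the 10-series above all 4 others, a difference of -0.92 (SE 0.316, limma adjusted p = 0.104). ATG12 (-0.61, limma adjusted p = 0.111) and ATG11 (-1.34, limma adjusted p = 0.244) were also higher in the 10-series on every array. These differences turn on single arrays: CPS1 was at -1.47 without the control and -0.38 without the treated array of the 10-series, ATG12 at -0.38 and -0.84, and ATG11 at -2.21 and -0.47, with -0.67 for ATG11 without treated A100. The remaining 6 vacuolar genes lay between -0.038 (PHO8) and 0.22 (PEP4), and the remaining 19 autophagy genes between -0.50 (ATG10) and 0.59 (ATG19). In all, the 4 arrays of the 100-series lay above both of the 10-series for 7 members (PRB1, ATG1, ATG2, ATG7, ATG13, ATG18 and ATG19) and below for 4 (CPS1, ATG10, ATG11 and ATG12), where 18.9% and 19.6% of all probe sets did.

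**Figure D2:**
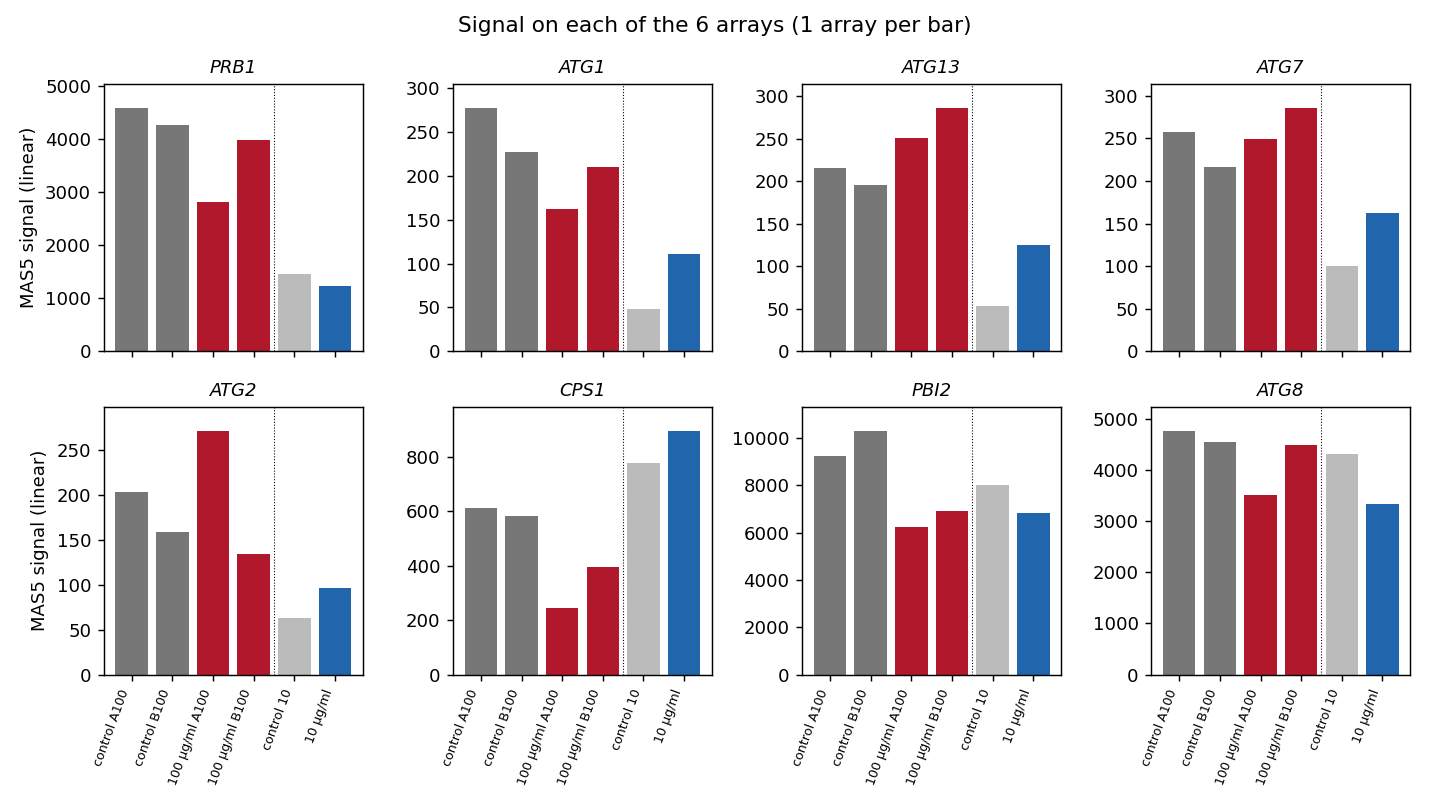
MAS5 signal on a linear scale (y axis, from 0) on each of the 6 arrays for 8 genes; 1 bar is 1 array, grey bars are controls, red 100 µg/ml and blue 10 µg/ml, and the dotted line divides the 100-series from the 10-series. PRB1, ATG1, ATG13, ATG7 and ATG2 are lowest on both 10-series arrays, CPS1 is highest there, and PBI2 is lower on each treated array than on each control.

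**Figure D3:**
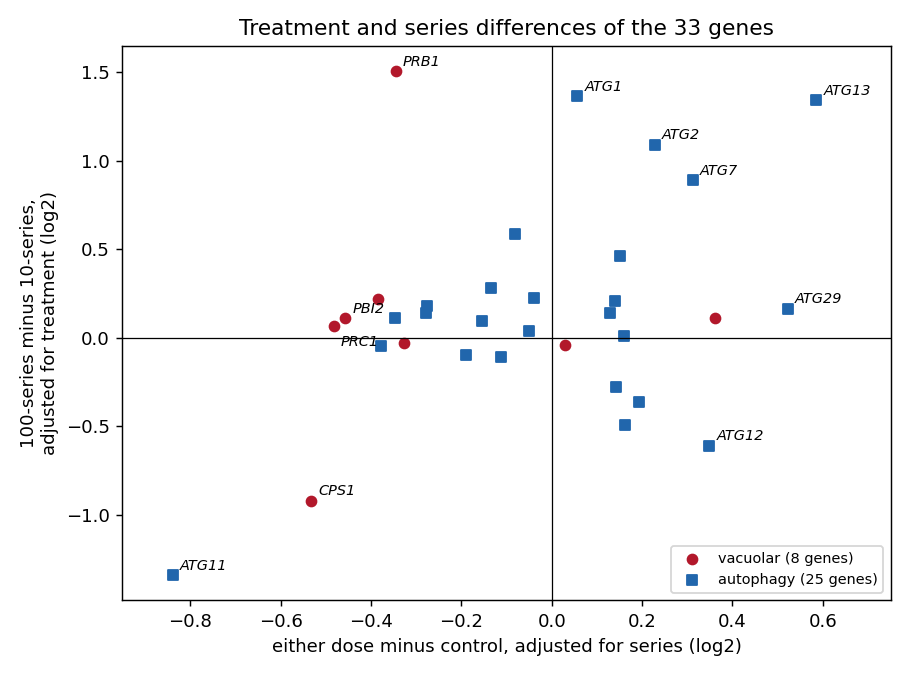
Each point is 1 of the 33 genes: the x axis is the log2 difference of either dose against control with series as a term, and the y axis the log2 difference of the 100-series against the 10-series with treatment as a term. PRB1 lies at -0.35 and 1.51, ATG13 at 0.59 and 1.34 and ATG11 at -0.84 and -1.34, while most genes lie near 0 on the y axis.

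Other genes of the vacuole and of autophagy were read from lists of the same pathways. None of their genes was called for either dose against control, where 0% of all probe sets were called and 43.5% were negative. Of 17 further hydrolases and inhibitors 12 were negative with a median of -0.16. Of them PPN1, a polyphosphatase gene, had the largest fitted value in absolute size (1.26, SE 0.753) and was low in the B100 control, 51.1 against 424 to 653 on the other 5 arrays, the same array on which AMS1 was low. PAI3, the inhibitor of proteinase A, was at -0.61 (SE 0.447), with 1236 on the treated A100 array and at least 3777 on the others. Of 17 further autophagy and Vps34 complex genes 11 were negative (median -0.051), of 16 proton pump genes 9 (-0.091), of 23 sorting and fusion genes 14 (-0.081), of 24 membrane transporters and polyphosphate genes 15 (-0.14) and of 31 regulators of TOR, nitrogen and starvation signalling 22 (-0.15). The largest values in the last list, TCO89 of TOR complex 1 (-1.43, SE 1.03) and the kinase SCH9 (-0.71, SE 0.513), rest on the treated A100 array, where they read 24.4 and 177 against at least 789 and 550.2 on every other array. Among the proton pump genes the largest were VMA7 (0.78, SE 0.234), higher in all 3 pairs, and VPH1 (-0.70, SE 0.542). Among the sorting and fusion genes it was VAM6 (0.50, SE 0.187), also higher in all 3 pairs.

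Between the series 4 of the 17 further hydrolases and inhibitors were called, all higher in the 100-series, against 5.18% of all probe sets. They were APE1, the gene of aminopeptidase I and main cargo of the route from cytoplasm to vacuole (1.78, SE 0.203, limma adjusted p = 0.00856), the ribonuclease gene RNY1 (0.95), the invertase gene SUC2 (1.64) and the trehalase gene NTH1 (1.08), the last 2 encoding enzymes that are not vacuolar. APE1 read 4939, 3834 and 1127 in the controls and 3316, 3173 and 1044 when treated, which places it beside PRB1 as a peptidase gene several times higher in the 100-series. Of the 17 further autophagy genes ATG41 (2.39, limma adjusted p = 0.00479), the sorting nexin genes SNX41 (1.19) and SNX4 (0.99) were called higher and the lipid kinase subunit ATG38 (-1.42) lower. The other lists had 1 called of 16 proton pump genes (VMA1, 0.88), 0 of 23 sorting and fusion genes (3 at an unadjusted p under 0.05), 2 of 24 transporters (AVT1 at 1.14 and AVT2 at -1.29) and 1 of 31 regulators (LST8 of the TOR complexes, 0.84). Beside these counts, 5.18% of all probe sets were called in each direction and 10.4% in both.

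Markers of culture state were called between the series, where 5.18% of all probe sets were called in each direction. With treatment (either dose) none in the stress, ethanol, phosphate or ribosome biogenesis lists passed limma's test and 2 had an unadjusted p under 0.05. That test called 0% of all probe sets and none of the 4 DNA damage genes, so it cannot set treatment against series here. The 10 general stress genes were lower on the treated array in 10, 10 and 7 cases in the A100, B100 and 10 pairs, and 7 of them in all 3. Over all probe sets 12.2% were lower in all 3 pairs, and 45.1% of those with a mean signal of 4000 or more. Between the series 6 of the 10 were called higher in the 100-series, among them SSA4 (4.15) and the catalase gene CTT1 (2.44), and their summed signal was 65199.7 to 93982 in the 100-series and 46894 to 58504 in the 10-series. Of 6 genes used for growth on ethanol 4 were lower in all 3 pairs, with summed signals of 32160.4 to 45359.5 in the controls, 7393 and 24939.8 on the 100 µg/ml arrays and 28088 on the 10 µg/ml array. Of 4 measured phosphate starvation genes 3 were called lower in the 100-series, with summed signals of 1969 to 2765 against 10875 to 11499, while PHO8, another Pho4 target, differed by -0.038. Of 9 ribosome biogenesis genes 7 passed the filter on the mean over all 6 arrays, which a gene low on some arrays can pass through the others. Of these 7 genes 2 were called lower in the 100-series. Their summed signals were 396, 405 and 424 on 3 arrays of that series, 1546 on treated A100, and 2020 to 2201 in the 10-series. The median pair difference of the 7 genes was 1.25 for A100, 0.015 for B100 and 0.11 for 10, so they were highest against control on the array where the vacuolar and autophagy medians were lowest. No marker gene was at 0, though NSR1 read 2.4 to 2.8 on 3 arrays of the 100-series and 176.9 on treated A100. The part of culture state in the values of the vacuolar and autophagy genes was not tested.

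**Figure D4:**
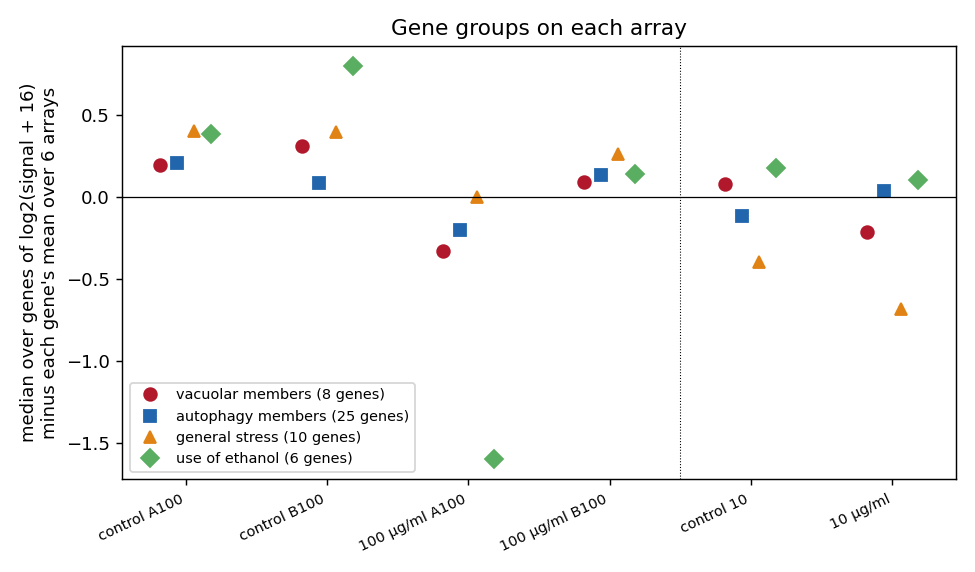
Median over the genes of a group of log2(signal + 16) minus each gene's mean over the 6 arrays (y axis), on each array (x axis); the dotted line divides the 100-series from the 10-series. The vacuolar genes stand at 0.19, 0.31 and 0.078 in the controls A100, B100 and 10 and at -0.33, 0.091 and -0.21 on their treated partners, and the autophagy genes at 0.21, 0.085 and -0.11 and at -0.20, 0.13 and 0.035.

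Set side by side on the deposited scale, the vacuolar group was below its control on each treated array, and the autophagy group was below its control on the treated A100 array and above it on the other 2. For B100 both directions depend on the scaling: the median pair difference was 0.012 (vacuolar) and -0.052 (autophagy) after quantile normalization, and -0.37 and -0.071 at a common median. The distance between the 2 groups was not tested, since their members were chosen with results of these data known.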

How the data were processed

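Transcripts of 33 genes were read from a table of intensity values, 1 linear signal per probe set and array, which the authors deposited. MAS5 is named in the submitters' processing notes, its settings not given in the sources used here. Since each array's 2% trimmed mean lay within 500.3 to 500.4, the deposited values were used unscaled. Genes were named through a platform annotation: of 6956 probe sets tested, 5670 had 1 symbol, 282 several and 1004 none. Left out were 60 control probe sets and the 25% with the lowest mean. Signals were analysed as log2(signal + 16), which understates differences of low signals.

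limma 3.58.1 (R 4.3.3) fitted all 6 arrays with a variance trend, two-sided, adjusted by Benjamini-Hochberg over all 6956 at 0.05. The fits were 1 mean per dose group (3 residual degrees of freedom), series plus treatment (3), and 4 means for the difference of dose effects (2). The lone 10 µg/ml array is assumed to vary like the others. The number of arrays limits the precision. Members, lists and tests were chosen with earlier results of these data known. Values on all arrays are given for the vacuolar genes, ATG1, ATG8 and the autophagy genes with the 6 largest differences for either dose and between series, which include each member called. Of other lists up to 3 genes with the largest differences were to be named, and genes called were added after seeing their values. Deviations from the mean of the 3 treated or the 3 control arrays correlated within the A100, B100 and 10 pairs at 0.0715, 0.458 and 0.666. These values also hold the difference between the series. A100 minus B100 correlated at -0.0708 between treated and control arrays, so labels were not taken as pairing. The fits were run on simulated data with independent noise on each array, which checks the code and not how well the fits suit these arrays. The planned search of promoter motifs was not run here, since no promoter sequence was used. Alternatives covered scaling, pseudocount, filter, trend, each array left out, other controls and the label as a block.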

Additional observations from a re-analysis of the deposited data

How the results depend on the processing

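Scaling to a common median moved the vacuolar median for either dose to -0.53, and with it the median of all probe sets from 0.056 to -0.10. The count of probe sets called between the series, 720, was 479 with no filter and 1538 without the A100 pair, an alternative chosen after seeing the data. Its split was 441 higher and 338 lower after quantile normalization and 443 and 315 at a common median. Members called were 2 with a pseudocount of 1, 2 with no filter and 0 from the controls alone, of 4. Without the A100 pair 1 probe set was called for either dose. With each array left out in turn, the series count ranged from 0 to 2033 and members called from 0 to 8. In the same way the count ranged from 0 to 1 for either dose, from 0 to 4 at 10 µg/ml and from 0 to 233 for the difference of dose effects, and the vacuolar median at 100 µg/ml from -0.52 to -0.099. For either dose the single-array ranges crossed 0 for AMS1 (-0.34 to 0.98), PHO8 (-0.15 to 0.34), ATG11 (-1.42 to 0.059) and ATG15 (-0.71 to 0.027). PHO8 was also -0.011 after quantile normalization, -0.13 at a common median and -0.046 without the A100 pair, where ATG11 was 0.081 and ATG15 0.17. The cause of these shifts was not tested. With the label as a replicate block the counts at 100 µg/ml, at 10 µg/ml and for either dose were 0, and the medians at 100 µg/ml were -0.42 (vacuolar) and -0.085 (autophagy). With 1 residual degree of freedom at 100 µg/ml and no calls to lose, this says nothing about stability, and the series comparison could not be fitted with the block, since each label lies in 1 series. Leaving out probe sets 7600 to 8500, also chosen after seeing the data, left 660 probe sets called between the series and 4 members. Signals near background limit the low genes.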
